A study of Mus musculus with 16 samples.

Results

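The proteasome subunit genes were taken as the genes of the mRNA table named Psm, a letter from a to g and a number. There were 47 such names, and 46 had a mean of at least 10 counts over the 16 mice, out of 14869 genes at that level among 23235 gene names. Of the 46 genes, 3 encode the inducible catalytic subunits of the immunoproteasome (Psmb8, Psmb9 and Psmb10) and were kept apart from the other 43. Psma8, a testis form of an alpha subunit, was left out with at most 4 counts in any mouse. Names that go on after the number (Psmb6-ps2, Psmc3ip and Psme2b) are not members.

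The proteasome degrades proteins that carry ubiquitin chains. Its 20S core is a stack of rings of alpha subunits, which form the gate, and beta subunits, of which Psmb5, Psmb6 and Psmb7 are the proteases, and its 19S cap holds ATPases that unfold substrates and non-ATPase subunits that bind and deubiquitinate them. Interferons replace these proteases by Psmb8, Psmb9 and Psmb10, which cut peptides suited to MHC class I. In skeletal muscle the pathway breaks down contractile proteins, with Trim63 and Fbxo32 among the ubiquitin ligases that feed it.

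RNA came from skeletal muscle of male C57BL/6J mice obtained at 6 weeks of age, with 4 mice in each of 4 groups and 1 library per mouse. Control mice ate a normal diet. HFD mice were fed the 60% fat feed D12492J for 8 weeks, and the HFD + RSV and HFD + MET mice were HFD mice then given resveratrol (a plant polyphenol) or metformin (a glucose-lowering drug) for 6 weeks. Every group except the controls therefore shared the high-fat diet, and the HFD mice given neither drug carry 1 leading number in their labels that the drug-treated mice do not, so that whatever it marks cannot be told apart from that group in the comparisons with control, HFD + RSV or HFD + MET.

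Total counts ran from 17625909 to 29761026 per mouse, and the 46 genes took 0.328% to 0.385% of them. The deposited extraction text names retinas, while 8 of 8 muscle fibre markers passed the count minimum with summed levels of 56518 to 108200 CPM (counts scaled to a common library size), and 1 of 6 retina markers passed it, with sums of 0.275 to 1.33 CPM. Libraries differed in other cells: white adipocyte markers summed to 27.5 to 2498 CPM, with control replicate 3 (2496 CPM) and HFD + MET replicate 3 (2498 CPM) highest and these same mice lowest in muscle fibre markers (58611 and 56518 CPM). In bulk RNA, fewer cells of a type and less RNA per cell cannot be told apart.

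Fold changes and CPM were scaled by TMM factors, which centre each comparison near the middle of all genes, so a sign below is relative to the other genes. Without these factors the median log2 fold change of all genes was -0.18 in HFD against control, 0.07 in HFD + RSV against HFD and 0.14 in HFD + MET against HFD. The shifts in HFD against control and HFD + MET against HFD are larger than the changes of most of the 43 genes. The shift in HFD + RSV against HFD is about the size of their median change there, -0.07. The directions that depend on the scaling are named as they come.

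Promoters are shown for a pair of the constitutive proteases, because the factors Nfe2l1 and Nfe2l2, which drive proteasome genes in other settings, bind antioxidant response elements. RefSeq windows (GRCm38.p6) of the 250 bases before the start were matched for 39 of the 46 genes, in 42 windows. The element, searched as TGACNNNGC on both strands, occurred once in the windows of Psmb5, Psmb6, Psmc6, Psmd12 and Psmd9, or 11.9% of the members' windows, against 10.2% of all 32851 windows. Below, capitals mark the match, at bases 47 to 39 before the start in Psmb5 (chr14:54618023-54618245, minus strand, 223 bases outside annotated exons) and at bases 9 to 1 in Psmb6 (chr11:70525107-70525356, plus strand).
Psmb5: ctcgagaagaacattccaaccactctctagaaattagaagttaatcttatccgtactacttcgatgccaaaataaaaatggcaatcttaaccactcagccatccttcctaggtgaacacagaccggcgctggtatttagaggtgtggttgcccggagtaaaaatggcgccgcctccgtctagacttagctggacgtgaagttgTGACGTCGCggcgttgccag
Psmb6: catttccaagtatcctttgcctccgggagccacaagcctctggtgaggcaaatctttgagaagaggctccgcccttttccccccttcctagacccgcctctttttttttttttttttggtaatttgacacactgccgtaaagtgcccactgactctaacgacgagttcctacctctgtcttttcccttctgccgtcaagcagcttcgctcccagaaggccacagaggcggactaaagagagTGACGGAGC

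The GC box GGGCGG was found in 54.8% of the members' windows against 32.7% of all windows, and the CCAAT box in 31% against 33.8%. The windows of Psmb8 and Psmb9 lie inside annotated exons over all 250 bases and are not shown. A match describes letters only. Psmb9 (chr17:34181987-34187764, minus strand) and Tap1 (chr17:34187553-34197225, plus strand), a transporter of peptides for MHC class I, overlap head to head, and Psmb8 (chr17:34197721-34201454) follows Tap1.

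On the deposited FPKM scale, which divides by transcript length, the structural subunits were abundant and the immunoproteasome was scarce. Among the alpha subunits, the mean over 16 mice ran from 14.9 FPKM for Psma5 to 77.2 FPKM for Psma6, a 5.19-fold range within a ring that holds each subunit in equal number. Among the constitutive beta subunits it ran from 30.6 FPKM for Psmb2 to 96.5 FPKM for Psmb7. The ATPases lay closer together, from 29.7 FPKM for Psmc4 to 64.8 FPKM for Psmc3, and the non-ATPase subunits ran from 23.0 FPKM for Psmd13 to 75.8 FPKM for Psmd2. Psme4, which encodes the PA200 cap, was the most abundant member at 111 FPKM, and Psme2, a subunit of the interferon-inducible PA28 cap, was the lowest of the caps at 8.14 FPKM.

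Factors that assemble the particle were present at lower levels. Chaperones of the 19S base ran from 4.00 FPKM for Psmd10 to 6.37 FPKM for Psmd9. Those of the 20S core ran from 3.84 FPKM for Psmg4 to 11.0 FPKM for Psmg2. The inhibitor Psmf1 was at 3.88 FPKM, and the immunoproteasome genes were at 2.24 FPKM for Psmb9, 3.18 FPKM for Psmb8 and 4.27 FPKM for Psmb10.

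**Figure D1:**
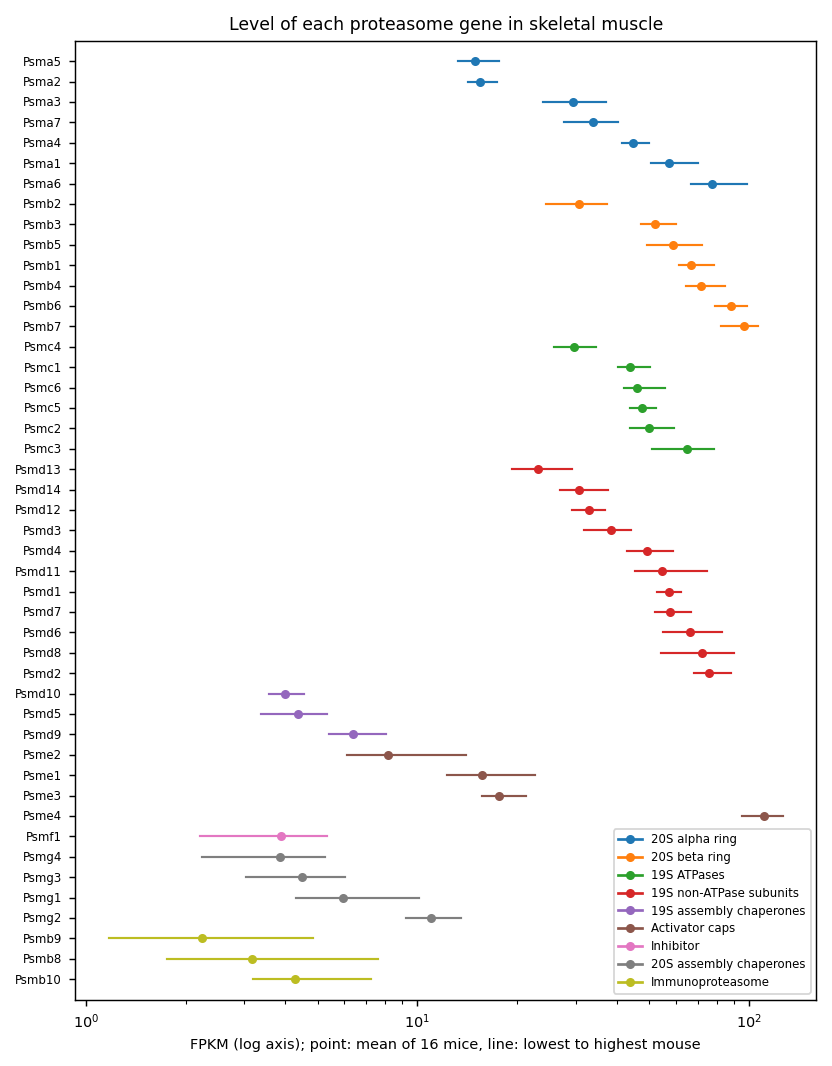
Level of each of the 46 genes in FPKM on a log axis, with the mean of 16 mice as a point and the lowest to the highest mouse as a line, coloured by role. Psme4 is highest at 111 FPKM and Psmb9 lowest at 2.24 FPKM.

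The 43 genes other than the immunoproteasome varied little between mice of a group. The SD of log2 CPM within groups had a median of 0.16 over them, against 0.25 over all genes tested and 0.19 over the 2998 genes with a mean of at least 1000 counts, and 41 of the 43 lay below the median of all genes. By library totals alone the medians were 0.13 over the 43 and 0.27 over all genes. The immunoproteasome genes had SDs of 0.29 to 0.41, and 0 of the 3 lay below it. They rest on fewer reads, with mean counts of 83.4 for Psmb9, 124 for Psmb10 and 137 for Psmb8, against 1424 for Psmb5.

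The effect of the high-fat diet was asked by HFD against control. No proteasome gene passed the test: 0 of 46 were called by edgeR's quasi-likelihood test at an adjusted p under 0.05, where 2.57% of all genes were, and DESeq2 also called 0. At an unadjusted p under 0.05 there were 2 (Psmg2 and Psmb5, both higher in HFD), against 24.4% of all genes. The median log2 fold change of the 43 genes was 0.07, with 33 above 0, against -0.02 over all genes tested, whereas without TMM factors it was -0.08 with 11 above 0, and 34 of the 43 were above the median of all genes. On the deposited FPKM the direction also depended on the reference, with 14 of the 43 above 0 and 31 above the median of all genes. The 95% intervals of all 43 lay within 1 log2 unit of 0, as did 74.7% of those of all genes, and those of 35 lay within 0.5, against 38.2% of all genes.

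Groups did not overlap for 6 of the 46 genes, each higher in all HFD mice than in any control, against 18.6% of all genes without overlap. These were Psmg2, Psmb5, Psmb7, Psmc5, Psmd2 and Psmd10. By library totals alone 3 genes did not overlap (16.9% of all genes), Psmg2 higher in HFD and Psma6 and Psmd3 lower, so that of the 6 genes Psmg2 alone held under both scalings. Psmg2, a chaperone that pairs with Psmg1 to build the alpha ring, was at 13.3, 11.6, 9.91 and 12.0 CPM in the control mice and at 14.9, 15.0, 15.7 and 15.3 CPM in the HFD mice. The HFD mice lay in a narrow band above the highest control. Its log2 fold change was 0.38 ± 0.15 (SE, n = 4 and 4), the highest of the 46, with an unadjusted edgeR p of 0.0199 and an adjusted p of 0.132.

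Psmb5, the chymotrypsin-like protease of the core, was at 53.7, 55.8, 56.5 and 58.5 CPM in the control mice and at 62.1, 65.3, 63.2 and 73.1 CPM in the HFD mice. HFD replicate 4 stood highest, and the lowest HFD mouse was above the highest control. The log2 fold change was 0.23 ± 0.10 (SE), with an adjusted edgeR p of 0.174. The HFD + RSV mice, at 62.3, 59.8, 61.8 and 64.5 CPM, also lay above every control on the TMM scale, but not by library totals (log2 fold change 0.15, adjusted edgeR p 0.483), while the HFD + MET mice spread from 47.0 to 69.2 CPM.

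Psmb7, the trypsin-like protease, was at 119 to 133 CPM in the control mice and at 139 to 147 CPM in the HFD mice (log2 fold change 0.18, adjusted edgeR p 0.359). Psmb6, the caspase-like protease, overlapped between the groups, with 70.9 to 83.2 CPM and 81.6 to 87.6 CPM (log2 fold change 0.12, adjusted edgeR p 0.520, 0.07 without control replicate 2 and -0.04 without TMM factors). The ATPase Psmc5 was at 63.1 to 76.4 CPM in control and at 77.2 to 78.2 CPM in HFD mice. Psmd2, a scaffold of the 19S cap that binds ubiquitin-like domains, was at 206 to 253 CPM and at 255 to 282 CPM, and the chaperone Psmd10 at 6.14 to 6.35 CPM and at 6.58 to 7.26 CPM. Adjusted edgeR p-values of these genes were 0.262 for Psmc5, 0.355 for Psmd2 and 0.341 for Psmd10.

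By role, the 6 ATPases all had a log2 fold change above 0 (median 0.11, highest 0.27 for Psmc3 with an adjusted edgeR p of 0.212), as did the 3 chaperones of the 19S base, but without TMM factors 2 of the 6 and 0 of the 3 did. The beta subunits had 6 of 7 above 0 with a median of 0.08, the alpha subunits 5 of 7 with a median of 0.04, and the non-ATPase subunits 8 of 11 with a median of 0.08, against 2 of 7, 0 of 7 and 4 of 11 above 0 without TMM factors. Against the median of all genes in that fit, the 6 ATPases, the 3 chaperones and the 7 beta subunits were all above, as were 5 of 7 alpha subunits. Psme2 had the lowest value of the 43, -0.31 ± 0.20 (SE, adjusted edgeR p 0.348). It was at 11.9 CPM in control replicate 3 and at 5.51 to 6.91 CPM in the other controls, and without that mouse the value was -0.03. Psme2b, a near copy of Psme2 with a mean of 203 counts against 154, can share its reads, and the sum of both gave -0.31. White adipocyte markers had a median of -1.90 in this comparison, with 5 of 6 below 0 and Lep at 1.39. Their sums were 506 to 2496 CPM in control and 50.4 to 582 CPM in HFD mice. Cfd weighed most in these sums, with a mean count of 8142 over all mice against 2348 for Adipoq, the next highest. Muscle fibre sums were 58611 to 97654 CPM in control and 92257 to 103890 CPM in HFD mice. The muscle fibre markers did not move together, with 5 of 8 above 0 and 0 called. Myh4 was at 0.66, while Myh7 was at -4.47 (unadjusted edgeR p 0.00833), Myh2 at -1.50 and Myh1 at -0.34. The 4 brown adipocyte markers were all below 0 with a median of -7.05. Of them, 2 were called, against 2.57% of all genes (Elovl3 at -8.55 and Cidea at -6.31, adjusted edgeR p-values 0.0330 and 0.0460). Without TMM factors Elovl3 stayed called (adjusted edgeR p 0.0408) but Cidea did not (adjusted edgeR p 0.0571). The sums of all 4 were 128 to 840 CPM in control and 94.8 to 112 CPM in HFD mice. Cox7a1 had the highest mean count over all mice, 2360, against 901 for Ucp1, 828 for Cidea and 95.7 for Elovl3. Cox7a1 was at -0.05, so these sums do not describe the other markers alone. The 4 Schwann cell markers were all below 0 with a median of -1.14, and sums of 49.1 to 171 CPM and 35.0 to 52.7 CPM. The part of these cells in the values was not tested.

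**Figure D2:**
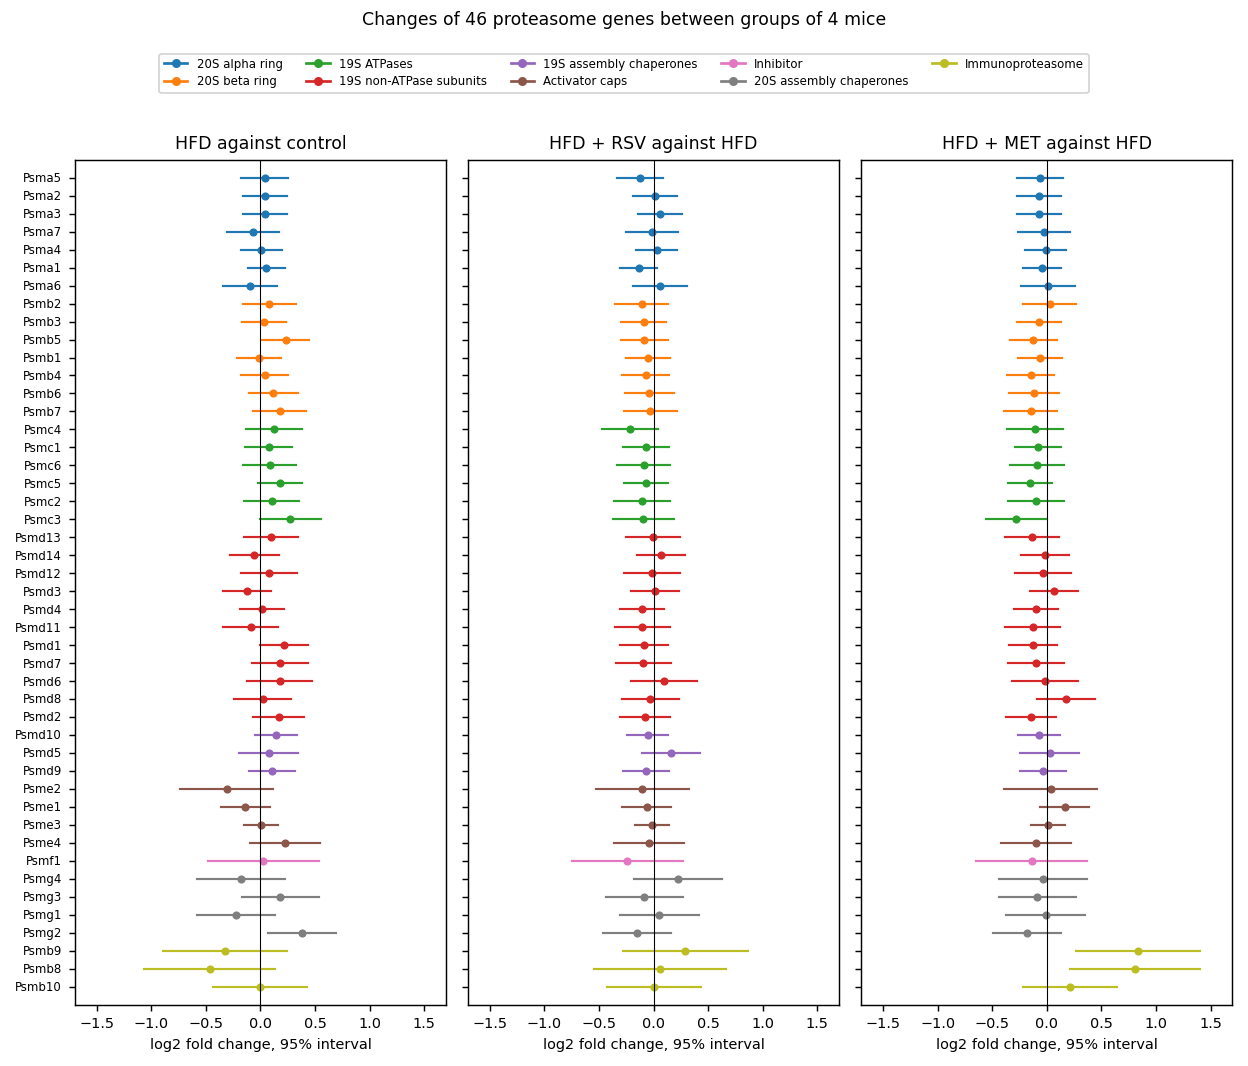
Log2 fold change (point) and 95% interval (line) from edgeR for each of the 46 genes, by role, in HFD against control, HFD + RSV against HFD and HFD + MET against HFD, with 4 mice per group. Most points sit near 0, on the side that the TMM scaling sets in many genes, and the intervals of Psmb8 and Psmb9 in HFD + MET against HFD, from 0.21 and 0.27 to 1.41 and 1.40, lie furthest above it.

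Resveratrol was compared with HFD alone in HFD + RSV against HFD. Of the 46 genes, 0 were called by edgeR at an adjusted p under 0.05 (0% of all genes) or by DESeq2, and 0 had an unadjusted p under 0.05, against 4.78% of all genes. The median log2 fold change of the 43 genes was -0.07, with 33 below 0, against 0.00 over all genes, and all 7 constitutive beta subunits and all 6 ATPases were below 0. Without TMM factors the median was -0.01 with 23 of the 43 below 0, and 4 of the 7 beta subunits and all 6 ATPases were below 0, while all 13 of them were below the median of all genes. The intervals of 40 of the 43 lay within 0.5 log2 units of 0, against 49.6% of those of all genes. Both this comparison and the one before it use the HFD mice, so their opposite signs are not independent.

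Groups did not overlap for 1 gene, against 4.22% of all genes. This was the alpha subunit Psma5, at 21.9, 20.6, 21.2 and 21.5 CPM in the HFD mice and at 19.7, 17.95, 20.3 and 20.2 CPM in the HFD + RSV mice. All HFD + RSV mice lay below the lowest HFD mouse, by a log2 fold change of -0.12 ± 0.10 (SE, adjusted edgeR p 1.00), but by library totals alone Psma5 overlapped and Psma3 and Psmd5 were higher in all HFD + RSV mice (4.41% of all genes without overlap). Psmf1, the inhibitor PI31, had the lowest value at -0.24, which became -0.44 without HFD + RSV replicate 1, the mouse with 15.1 CPM where the others had 9.25 to 9.71 CPM. The ATPase Psmc4 was at -0.21. The 3 immunoproteasome genes ran from -0.0004 to 0.29, with a median of 0.06. Psmb9 was the highest of all 46 at 0.29, and at 0.16 to 0.47 when 1 mouse was left out. The highest values of the 43 were 0.22 for Psmg4 and 0.16 for the 19S chaperone Psmd5. Psmg4 was at 0.08 without HFD + RSV replicate 4, 0.09 without HFD replicate 2 and 0.37 without HFD replicate 4, and Psmd5 was at 0.09 without HFD replicate 2.

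Markers of other cells also moved in this comparison, although 0 were called by edgeR. The 4 Schwann cell markers were all above 0 with a median of 1.22, with 3 at an unadjusted p under 0.05 and sums of 35.0 to 52.7 CPM in HFD and 35.2 to 326 CPM in HFD + RSV mice. The 5 erythroid markers were all above 0 with a median of 0.93, with 4 at an unadjusted p under 0.05 and sums of 361 to 476 CPM and 507 to 1342 CPM. Of 8 muscle fibre markers, 4 were above 0, with Myh7 at 3.15 (unadjusted edgeR p 0.0376). The part of these markers in the values was not tested.

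Metformin was compared with HFD alone in HFD + MET against HFD. The 43 genes had a median log2 fold change of -0.07, with 35 below 0, against 0.02 over all genes, whereas without TMM factors it was 0.04 with 12 below 0, and 37 were below the median of all genes. The median over all 46 genes, -0.07, became 0.00 without HFD + MET replicate 3, -0.02 without HFD + MET replicate 1 and -0.13 without HFD + MET replicate 4. The lowest value was -0.28 for the ATPase Psmc3 (adjusted edgeR p 0.613), which became -0.16 without HFD + MET replicate 3. The immunoproteasome genes had values of 0.81 for Psmb8, 0.83 for Psmb9 and 0.21 for Psmb10. Against control, the 3 genes ran from -0.46 to -0.003 in HFD and from 0.21 to 0.51 in HFD + MET mice. By edgeR, 0 of the 46 were called at an adjusted p under 0.05 (0.0135% of all genes), and DESeq2 called 0. At an unadjusted p under 0.05 there were 2, Psmb8 and Psmb9, against 8.09% of all genes, and 0 genes had groups that did not overlap, against 3.71% of all genes, while by library totals alone Psmb2 was higher in all HFD + MET mice (4.3% of all genes without overlap). All 43 intervals lay within 1 log2 unit of 0 (79.5% of all genes), but not those of Psmb8 and Psmb9.

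Psmb8, the inducible counterpart of Psmb5, was at 6.80, 4.51, 7.52 and 6.66 CPM in the control mice. It was at 3.72, 4.15, 3.67 and 6.94 CPM in the HFD mice and at 9.03, 6.02, 12.6 and 4.77 CPM in the HFD + MET mice. The HFD + RSV mice had 4.38, 4.38, 5.37 and 5.05 CPM. HFD replicate 4 stood above the other HFD mice and above HFD + MET replicates 2 and 4, and HFD + MET replicate 3 was the highest of all. The 1.75-fold difference between HFD + MET and HFD (log2 0.81 ± 0.28, SE) had an unadjusted edgeR p of 0.0116 and an adjusted p of 0.595.

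Psmb9, the counterpart of Psmb6, was at 1.99, 2.45, 2.83 and 3.72 CPM in the HFD mice and at 5.39, 3.48, 7.62 and 3.12 CPM in the HFD + MET mice. The groups overlapped through HFD replicate 4 and HFD + MET replicates 2 and 4. The difference was 1.78-fold (log2 0.83 ± 0.27, SE, adjusted edgeR p 0.588). Psmb10, the counterpart of Psmb7, was at 4.32, 4.65, 4.55 and 7.17 CPM in the HFD mice and at 5.89, 5.69, 8.25 and 4.13 CPM in the HFD + MET mice, with an interval from -0.22 to 0.64.

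Single mice moved these values. Without HFD + MET replicate 3 they were 0.51 for Psmb8, 0.54 for Psmb9 and 0.02 for Psmb10, and without HFD replicate 4 they were 1.07, 1.01 and 0.41. HFD + MET replicate 3 also had the highest white adipocyte and erythroid sums (2498 and 1394 CPM) and the lowest muscle fibre sum. The 6 white adipocyte genes were all above 0 in this comparison, with a median of 1.80, and all 5 erythroid genes had an unadjusted p under 0.05 and a median of 1.12. The 4 brown adipocyte markers were all above 0 with a median of 3.82, though Cox7a1 was at 0.01. Of these 4, 2 had an unadjusted edgeR p under 0.05, against 8.09% of all genes. The 4 endothelial markers were all above 0 (median 0.22), and the 4 fibroblast markers were all below 0 (median -0.17). Of 13 leukocyte markers, 7 passed the count minimum, with a median of 0.11 and sums of 102 to 228 CPM in HFD and 100 to 314 CPM in HFD + MET mice, while the T cell genes Cd3e and Cd8a had at most 14 and 12 counts. The part of these cells in the values was not tested.

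**Figure D3:**
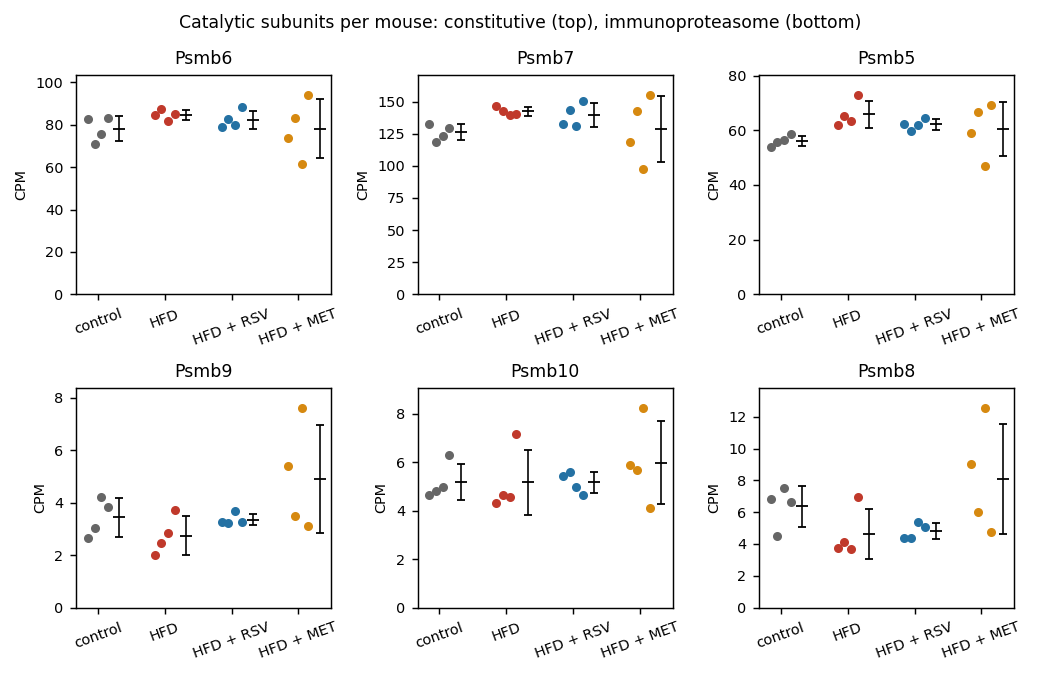
CPM of the constitutive proteases Psmb6, Psmb7 and Psmb5 (top) and their inducible counterparts Psmb9, Psmb10 and Psmb8 (bottom) in each mouse, with the mean and SD of each group of 4 in black. Psmb8 reaches 12.6 CPM in HFD + MET replicate 3 and stays at 5.37 CPM or less in the HFD + RSV mice.

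As a description with no test, the length-scaled ratio of Psmb8 to Psmb5 was 6.15% ± 1.18 (SD, n = 4) in control, 3.74% ± 1.01 in HFD, 4.11% ± 0.37 in HFD + RSV and 7.77% ± 4.80 in HFD + MET mice. The ratio of Psmb9 to Psmb6 was 2.48% ± 0.25, 1.83% ± 0.50, 2.26% ± 0.20 and 3.70% ± 2.04 in the same order. For Psmb10 to Psmb7 it was 4.37% ± 0.47, 4.03% ± 0.87, 4.06% ± 0.43 and 5.46% ± 2.44. Over the 16 mice the highest of these ratios was 14.4%, for Psmb8 to Psmb5 in HFD + MET replicate 3.

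The mean level of the 43 genes and that of the 3 immunoproteasome genes were set side by side for each mouse, as log2 CPM centred on the mean of all mice. HFD + MET replicate 3 had the highest immunoproteasome level with TMM factors (0.97) and by library totals alone (1.22). Its level of the 43 genes was the lowest of the 16 mice with TMM factors (-0.23) but 0.01 by library totals, where HFD replicate 2 was lowest (-0.16) and control replicate 3 highest (0.20). HFD + MET replicate 4 had the highest level of the 43 with TMM factors (0.16) and 0.09 by totals. The HFD + RSV mice lay between -0.03 and 0.05 for the 43 genes and between -0.14 and -0.02 for the immunoproteasome, and by totals between -0.05 and 0.01 and between -0.24 and -0.03.

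**Figure D4:**
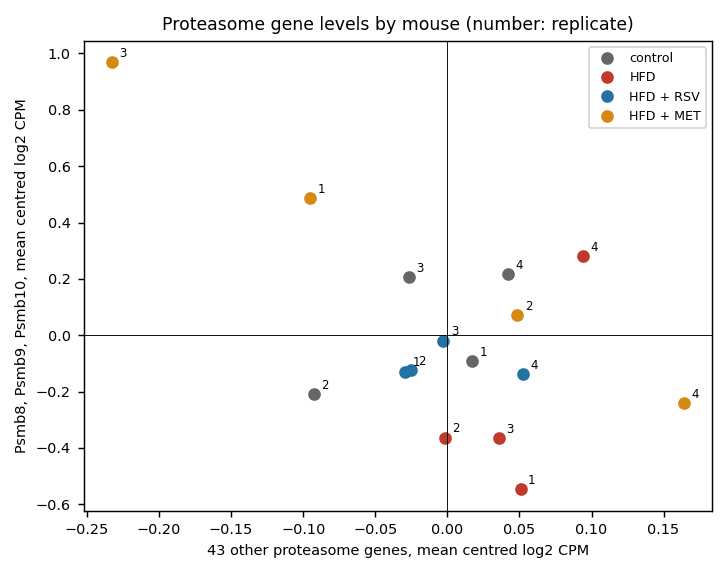
Mean centred log2 CPM with TMM factors of the 43 other proteasome genes (horizontal) and of Psmb8, Psmb9 and Psmb10 (vertical), 1 point per mouse, numbered by replicate. HFD + MET replicate 3 stands at the upper left at -0.23 and 0.97, and its horizontal position becomes 0.01 when scaled by library totals alone.

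The remaining comparisons set the treated mice against control and against each other. In HFD + RSV against control, 0 of 46 genes were called by edgeR (0.00673% of all genes) or DESeq2, 0 had an unadjusted p under 0.05 (16% of all genes), and 1, Psmb5, had groups that did not overlap (11.5% of all genes). In HFD + MET against control the numbers were 0 called by either tool (0% of all genes by edgeR), 0 at an unadjusted p under 0.05 (9.56% of all genes) and 0 without overlap (3.54% of all genes). The medians of the 43 genes were 0.01 and 0.00, against -0.09 and -0.05 without TMM factors. By library totals alone 0 genes in either comparison had groups that did not overlap.

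Between the drugs, in HFD + RSV against HFD + MET, 0 of 46 genes were called by either tool (0% of all genes by edgeR), 2 had an unadjusted p under 0.05 (4.71% of all genes) and 0 had groups that did not overlap (1.53% of all genes). Those 2 were Psmb8 (-0.75 ± 0.28, SE, adjusted edgeR p 0.959) and Psme1, the partner of Psme2 in the PA28 cap (-0.23 ± 0.11, SE, adjusted edgeR p 0.959). Psmb9 had a value of -0.54 with an interval from -1.11 to 0.02. Without HFD + MET replicate 3, Psmb8 was at -0.46 and Psmb9 at -0.25.

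Genes around the proteasome were read from lists that were written with earlier results of these data known. Of 9 regulators of proteasome genes, 1 was called in HFD against control, against 2.57% of all genes. Nfe2l2, the antioxidant factor Nrf2, fell by 0.47 ± 0.10 (SE, adjusted edgeR p 0.0327), from 65.7, 65.9, 73.9 and 62.0 CPM in the control mice to 50.5, 54.9, 44.5 and 43.1 CPM in the HFD mice. These groups did not overlap, as was so for 18.6% of all genes. Nfe2l1, which restores proteasome genes when the proteasome is blocked, had a value of 0.07 with an interval from -0.32 to 0.46. Of 9 muscle ubiquitin ligases, 1 was called, against the same 2.57% of all genes. Cblb, a ligase that targets Irs1 in unloaded muscle, fell by 0.83 ± 0.13 (SE, adjusted edgeR p 0.0143), from 78.0 to 99.4 CPM in control to 40.4 to 58.4 CPM in HFD mice. The atrophy ligases Trim63 and Fbxo32 had values of -0.86 and -0.36, with adjusted edgeR p-values of 0.0977 and 0.465. Without TMM factors Nfe2l2 and Cblb had values of -0.64 and -0.99 and stayed called (adjusted edgeR p-values 0.0247 and 0.0138).

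None of the 6 ubiquitin genes, the 10 proteasome-bound deubiquitinases, shuttles and ligases or the 5 subunits and assembly factors under other names was called by edgeR in any of the 6 comparisons. At an unadjusted p under 0.05 in HFD against control there were 1, 2 and 3 of them, against 24.4% of all genes. The last 3 were AI314180, the proteasome adaptor Ecpas (0.42, adjusted edgeR p 0.0842), Sem1, a 19S subunit (0.32, adjusted edgeR p 0.127), and Akirin2, which carries proteasomes into the nucleus (-0.40, adjusted edgeR p 0.0782).

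The genes that work with the immunoproteasome lay on the same side as Psmb8 and Psmb9 in HFD + MET against HFD. Their lists were written with earlier results of these data known, so the counts below are a description and not a test. Of 13 antigen processing genes, 0 were called by edgeR, 5 had an unadjusted p under 0.05, against 8.09% of all genes, and 13 were above 0, with a median of 0.47. Tap1 was at 8.83, 6.86, 10.4 and 7.55 CPM in the control mice. It was at 4.15, 5.31, 4.77 and 5.28 CPM in the HFD mice and at 9.74, 6.47, 13.8 and 4.85 CPM in the HFD + MET mice (log2 fold change 0.83, adjusted edgeR p 0.569). HFD + MET replicates 1 and 3 were again the highest of their group. Of 11 interferon-stimulated genes, 0 were called by edgeR, 9 had an unadjusted p under 0.05, against 8.09% of all genes, and 11 were above 0, with a median of 0.74 and the highest value for Ifit1 (1.19 ± 0.21, SE, adjusted edgeR p 0.139). Rsad2, an antiviral enzyme, was at 6.44, 9.09, 7.25 and 5.28 CPM in the HFD mice and at 7.21, 10.3, 22.3 and 8.62 CPM in the HFD + MET mice. HFD + MET replicate 3 was the highest and replicate 1 the lowest of its group. Without replicate 3, the counts at an unadjusted p under 0.05 were 5 of 11 interferon-stimulated and 2 of 13 antigen processing genes, against 3.69% of all genes, and the medians were 0.36 and 0.29. In HFD against control, 12 of 13 antigen processing and 8 of 11 interferon-stimulated genes were below 0, with medians of -0.31 and -0.25. In HFD + MET against control, 9 of 13 and 11 of 11 were above 0, with medians of 0.09 and 0.39. There 0 and 4 had an unadjusted p under 0.05, against 9.56% of all genes.

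The table lists 247 transcripts of the 46 genes, and the most abundant transcript held over 50% of a gene's counts in 41 of them. Psmb9 was an exception, with 43.7% in a transcript typed as retained intron. Summing only protein-coding transcripts gave 0.81 for Psmb9 and 0.83 for Psmb8 in HFD + MET against HFD. Fitted with all 40855 transcripts tested, 0 of 170 member transcripts were called by edgeR in any comparison. At an unadjusted p under 0.05 in HFD against control, 24 of the 170 passed, against 13.7% of all transcripts tested. At that threshold, 12 of 65 retained-intron transcripts of the members were lower in HFD and 0 higher, against 9.13% and 3.11% of all retained-intron transcripts. The median log2 fold change was -0.14 over the 65 and -0.13 over all retained-intron transcripts. Exons of 13 members overlap those of another gene, 11 of them on the other strand (Psmb9 with Tap1, for example), and without strand in the counting reads from such a pair cannot be told apart.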

How the data were processed

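RNA of skeletal muscle was sequenced from 16 mice. According to the study's methods, the authors estimated transcript levels with StringTie; the submitters' processing notes name fastp, HISAT2 and GRCm38. The authors deposited an expected count per transcript and mouse, and they were whole numbers that differed in total between mice. FPKM values deposited in the same table, which divide by transcript length, were used here only for levels, ratios and the direction of group means. The study's methods name TMM normalization before the calculation of FPKM. In HFD against control, the median log2 ratio of all genes was -0.17 in these FPKM. In the counts it was -0.18 without TMM factors and -0.02 with them. Records broken over lines (4) were joined. Counts were summed per gene name over 82388 transcripts, and genes with a mean of at least 10 counts were kept. Precision follows from 17625909 to 29761026 counts per mouse.

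Groups came from the treatment labels and replicate numbers from accession order. All 16 mice entered 1 quasi-likelihood fit in edgeR 4.0.16 (R 4.3.3) with TMM factors, robust dispersions and Benjamini-Hochberg adjustment over 14869 genes, called at an adjusted p under 0.05. Unadjusted p-values and intervals (95%) came from that fit. DESeq2 1.42.0, other normalization and filters, 2-group fits, single transcripts and leaving out each mouse were the alternatives, and scaling by library totals alone was added after seeing the data. The scripts were tested on simulated data. CPM values used TMM library sizes. The tests measure the spread between mice.

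The members and lists were chosen with earlier results of these data known. Named genes were the immunoproteasome genes and their counterparts, the 3 highest and 3 lowest fold changes of the first 3 comparisons, the extremes of level in each role and genes whose groups did not overlap. Transcript types came from GENCODE M21, in which 241 of the 247 member transcripts had the same position. Windows for Psmb1, Psmb2, Psmb7, Psmc3, Psmd3, Psmd7 and Psmg2 were not used here. The lncRNA table was not used.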

Additional observations from a re-analysis of the deposited data

Results flagged for a closer look

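Of 96 groups of 4 mice examined, 5 had a mouse far from the other 3; chance alone gives about 1 in 20. In the HFD mice, replicate 4 had 6.94 CPM of Psmb8 where the others had 3.67 to 4.15 CPM, and 7.17 CPM of Psmb10 where the others had 4.32 to 4.65 CPM. In the HFD + RSV mice, replicate 3 had 3.69 CPM of Psmb9 where the others had 3.21 to 3.26 CPM, and its mean centred log2 level of the 3 immunoproteasome genes was -0.0191 where the others had -0.14 to -0.12. HFD + RSV replicate 1 had 15.1 CPM of Psmf1 where the others had 9.25 to 9.71 CPM.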

How the results depend on the processing

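No paired analysis was possible because the labels give the groups no shared replicate numbers. The count of proteasome genes called at an adjusted p under 0.05 was 0 in each of the 6 comparisons under each alternative run in edgeR or DESeq2, leaving out each mouse in turn included. By an unadjusted p under 0.05 it was 2 in HFD against control, 2 in HFD + MET against HFD and 2 in HFD + RSV against HFD + MET. Direction was followed only for the 32 pairs of a named gene and 1 of the first 3 comparisons whose log2 fold change exceeded its SE. Pairs at or below their SE were left out, so the count favours values able to keep a sign. Of 538 values of these pairs under 26 settings, 534 kept their direction, 0 passed the threshold and 4 reversed, all in HFD against control without TMM factors: Psmb6 (-0.038), Psmc4 (-0.025), Psmd10 (-0.014) and Psmd9 (-0.043). In that fit, the median over the 46 genes was -0.11 in HFD against control, 0.042 in HFD + MET against HFD and -0.095 in HFD + RSV against control. Omitting TMM factors, taking FPKM group means, leaving mice out of the interferon and antigen lists, summing protein-coding transcripts alone, summing Psme2 with Psme2b and leaving out control replicate 3 with HFD + MET replicate 3 were chosen after seeing the data. The last gave 0.51 for Psmb8 and 0.53 for Psmb9 in HFD + MET against HFD. Without 1 mouse, the median over the 46 genes in that comparison ran from -0.13 to 0.00. Scarce members limit the depth: Psmb9 had as few as 46 counts in a mouse.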
